A study of Mus musculus with 7 samples.

Results

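The CXC chemokines of skin and the neutrophil receptor Cxcr2 were examined in bulk RNA sequencing of dorsal skin from aged mice. The set held 10 genes chosen by name out of the 55450 in the count table: the CXCR2 ligands Cxcl1, Cxcl2, Cxcl3 and Cxcl5, the platelet chemokines Ppbp and Pf4, the receptor gene Cxcr2, and the homeostatic chemokines Cxcl12, Cxcl14 and Cxcl16. All 10 were among the 17959 genes tested. ABT-263 (Navitoclax), an inhibitor of BCL-2 and BCL-xL used to remove senescent cells, was applied to the skin at 5 μM for 5 days in 3 mice (476, 477 and 478). Vehicle, DMSO alone, was applied for the same time in 4 mice (480, 481, 482 and 483). All 7 animals were wild type C57BL/6 males aged 24 months, and each gave 1 library. Both groups had their dorsal hair clipped and removed with a depilatory lotion, had the skin cleansed with ethanol, and wore a semi-occlusive dressing over the treated area. No untreated skin is compared here, so every value in DMSO mice is also a value in depilated, dressed skin.

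CXC chemokines are small secreted proteins that guide leukocytes by binding G protein-coupled receptors. The ligands of CXCR2 are made by keratinocytes, fibroblasts, endothelial cells, macrophages and neutrophils themselves, mostly on demand through IL-1, TNF and IL-17 signalling, and they draw neutrophils out of the blood and into tissue. Ppbp and Pf4 are stored in platelet granules, and Pf4 is also expressed by some tissue macrophages. Cxcl12, Cxcl14 and Cxcl16 are present in resting tissue, where they act on stem cells, lymphocytes and other leukocytes.

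The 4 DMSO libraries held 20344364 to 26824123 counted read pairs and the 3 ABT-263 libraries 27325963 to 43562330, with no overlap. Levels are given as CPM, read counts relative to library size, scaled with edgeR's TMM method. The keratin genes Krt5 and Krt14, markers of basal keratinocytes, stood at 3356 CPM or more in all 7 mice, and the samples carried muscle as well as skin. The 8 skeletal muscle genes listed summed to 34380 to 68768 CPM in DMSO mice and to 26462 to 35210 CPM in ABT-263 mice, with a median log2 fold change of -0.77. Of these 8 genes, 2 fell and 0 rose with edgeR, against 11.7% and 12.4% of all genes tested. The part of muscle content in the results was not tested. Hair follicle keratins summed to 1913 CPM in DMSO mouse 481 and to 318 CPM in ABT-263 mouse 478, against 0.751 to 14.8 CPM in the other mice.

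After ABT-263, 4 of the 10 genes rose: Cxcl1, Cxcl2, Cxcl3 and Cxcl12. No member fell. These calls rest on an adjusted p under 0.05 in edgeR's quasi-likelihood test, which called 12.4% of all genes tested higher and 11.7% lower. At an unadjusted p under 0.05, 8 members were higher and 0 lower with edgeR, against 20.6% and 19.5% of all genes tested. The DESeq2 Wald test called 6 members higher and 0 lower, against 9.07% and 7.94% of the 30645 genes with a count. These shares include genes that the edgeR filter leaves out. For limma on the variance-stabilized values the counts were 4 and 0 (11.9% and 11.5% of the 17959 genes tested). With edgeR on every gene with a count, 1 member, Cxcl12, was called higher (6.11% of all genes), and 7 were higher at an unadjusted p under 0.05 (14.0%). On genes with at least 10 counts in every mouse edgeR called 2, Cxcl2 and Cxcl12 (13.4% of the genes in that fit). That filter left Cxcl1, Cxcl3, Cxcl5 and Ppbp untested. The fitted log2 fold change was above 0 for all 10 members, with a median of 2.13, while 50.1% of all genes tested lay above 0 with a median of 0.0022. In 7 members every ABT-263 mouse lay above every DMSO mouse, an order seen in 18.7% of all genes tested. The exceptions were Pf4, Cxcl14 and Cxcl16.

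One animal carried much of the size of these differences. ABT-263 mouse 476 had the highest level of 9 of the 10 members, and it was the highest of the 7 mice in 21.0% of all genes tested. Without this mouse, edgeR called 2 members higher, Cxcl3 and Cxcl12, when 6.01% of all genes were called higher, and the median log2 fold change of the members was 1.34. Without mouse 477 it called 5 members (12.3% of all genes higher), without 478 4 (5.22%), without 480 4 (11.6%), without 481 3 (7.95%), without 482 3 (4.80%) and without 483 4 (5.58%). The filter on low counts kept Cxcl5 and Ppbp only through their levels after ABT-263, since fewer than 3 DMSO mice reached its limit of 0.373 CPM. The other 8 members reached the limit in at least 3 DMSO mice. In bulk tissue a change in the number of cells that express a gene and a change in its RNA per cell cannot be told apart.

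**Figure D1:**
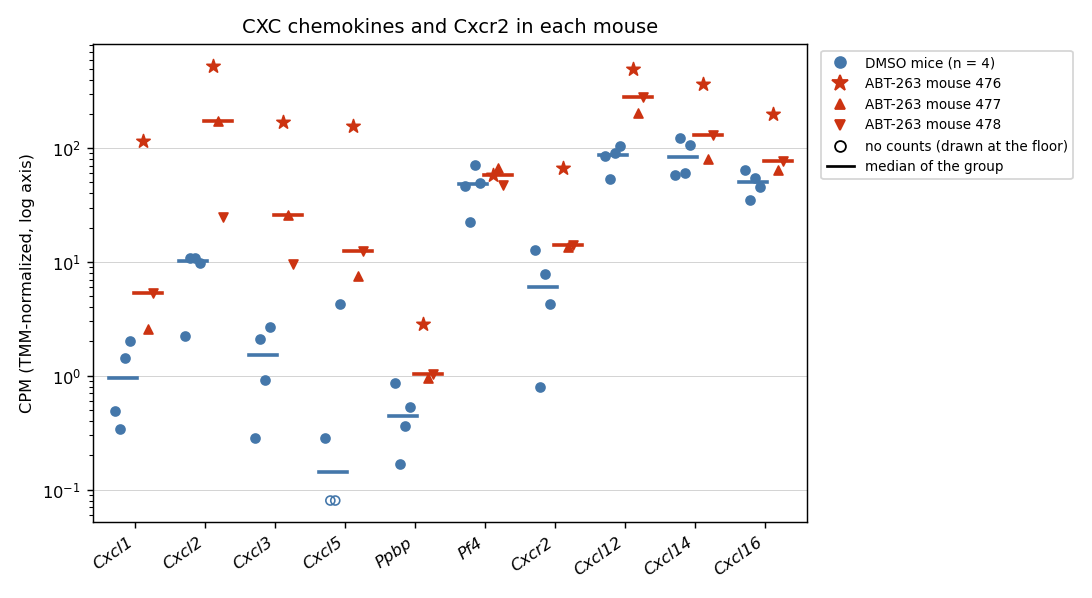
Levels of the 10 genes in each mouse, in CPM on a log axis, with 1 point per mouse, a line at the median of each group, and open circles for mice without counts. Mouse 476 (star) is highest for every gene but Pf4, and the ABT-263 mice overlap the DMSO mice for Pf4, Cxcl14 and Cxcl16.

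Of the members, 6 lie together on chromosome 5, all on the forward strand, in an interval of 146.6 kb from 90759360 to 90905938 (GRCm38, GENCODE M21). Their order is Cxcl5, Ppbp, Pf4, Cxcl3, Cxcl1 and Cxcl2, with Cxcl15, which had 0 counts in every mouse, between Cxcl3 and Cxcl1. Fitted changes inside the interval ranged from a log2 fold change of 0.28 for Pf4 to 5.64 for Cxcl5, and differences between genes were not tested. The other 4 members lie alone: Cxcr2 on chromosome 1 from 74153989 to 74161246, Cxcl12 on chromosome 6 from 117168535 to 117181367, Cxcl14 on chromosome 13 from 56288643 to 56296551, and Cxcl16 on chromosome 11 from 70453983 to 70459984. Cxcl16 overlaps Zmynd15 on the opposite strand, and the authors counted read pairs by strand.

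Promoters are shown for the 4 members that rose, because the 3 CXCR2 ligands among them hold the same letters shortly before the start and Cxcl12 does not. The bases are those of RefSeq on GRCm38.p6 before the transcription start, 5′ to 3′ on the forward strand, and the stretch ends earlier where GENCODE M21 starts the gene earlier, which leaves out the last 4 bases before the RefSeq start of Cxcl1 and the last 28 before that of Cxcl2. Capitals mark a match to the kappaB consensus, the sequence bound by NF-kappaB, on both strands. The windows are chr5:90890995-90891240 for Cxcl1, chr5:90903649-90903870 for Cxcl2, chr5:90785851-90786100 for Cxcl3 and chr6:117168285-117168534 for Cxcl12.
Cxcl1: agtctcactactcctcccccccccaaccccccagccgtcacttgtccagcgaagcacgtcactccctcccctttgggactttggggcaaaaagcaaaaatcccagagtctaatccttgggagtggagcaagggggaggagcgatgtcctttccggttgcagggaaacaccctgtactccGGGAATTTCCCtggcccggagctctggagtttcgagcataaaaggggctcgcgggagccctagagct
Cxcl2: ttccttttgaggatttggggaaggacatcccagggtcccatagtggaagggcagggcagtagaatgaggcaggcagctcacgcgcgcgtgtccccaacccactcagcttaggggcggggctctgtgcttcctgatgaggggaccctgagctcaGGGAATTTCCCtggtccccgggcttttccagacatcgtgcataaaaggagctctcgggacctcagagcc
Cxcl3: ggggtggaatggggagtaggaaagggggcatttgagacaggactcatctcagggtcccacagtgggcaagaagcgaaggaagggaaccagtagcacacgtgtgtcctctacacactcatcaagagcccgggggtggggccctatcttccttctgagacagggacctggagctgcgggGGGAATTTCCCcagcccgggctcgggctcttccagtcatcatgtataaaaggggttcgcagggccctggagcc
Cxcl12: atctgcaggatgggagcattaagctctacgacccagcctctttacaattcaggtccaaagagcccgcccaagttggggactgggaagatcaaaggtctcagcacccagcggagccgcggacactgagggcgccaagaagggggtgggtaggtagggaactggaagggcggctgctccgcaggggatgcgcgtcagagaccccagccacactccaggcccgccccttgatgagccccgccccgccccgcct

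The kappaB match begins 71 bases before the RefSeq start of Cxcl1, 97 before that of Cxcl2 and 73 before that of Cxcl3, and in all 3 it reads GGGAATTTCC on the forward strand. A match on the reverse strand overlaps it 1 base further on. The RefSeq table holds a promoter entry (250 bases before to 50 after the start) for 8 members and none for Cxcl5 and Cxcl16, which were not searched. Of the 8, these 3 hold the kappaB consensus, which is found in 4.51% of 32851 promoters. The exact letters GGGAATTTCC, searched for after the matches had been seen, are found in 29 of those promoters. Further motifs were searched on both strands. The AP-1 site TGANTCA, held by 7.81% of promoters, was found for Ppbp. A C/EBP site, TTGCNNAA, is in 10.8% of promoters and was found for Pf4. The TATA box, with the letters TATAAA, is in 13.6% of promoters and was found for Cxcl3 and Ppbp. The windows of Cxcr2, Cxcl12 and Cxcl14 hold none of these letters. These are matches of letters, and binding was not measured.

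Cxcl2, also called MIP-2, is a potent neutrophil attractant made by macrophages and by neutrophils. It stood at 2.25, 10.7, 10.9 and 9.86 CPM in DMSO mice 480, 481, 482 and 483 and at 531, 173 and 25.1 CPM in ABT-263 mice 476, 477 and 478. The groups did not overlap, mouse 476 was highest, and DMSO mouse 480 lay well below the other 3 DMSO mice. The mean was 28.8-fold higher after ABT-263, and 11.7-fold higher without mouse 476. With all mice the fitted log2 fold change was 4.85 (standard error 1.00, edgeR adjusted p = 0.0174). Without mouse 476 it was 3.56 and missed the threshold, with an edgeR adjusted p of 0.0752, while it passed without each of the other 6 mice. On every gene with a count the edgeR adjusted p was 0.0664.

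Cxcl3 lies in the same cluster, and its transcript shares a run of 157 bases with that of Cxcl2, the only pair among the 9 chemokines with a run of over 23 shared bases. Read pairs wholly inside that run would align to both genes and would not be counted, since the authors kept unique alignments. Stretches of 50 bases shared with the other gene make up 5.35% of the longest Cxcl2 transcript and 3.13% of the longest Cxcl3 transcript. Cxcl3 stood at 0.286, 2.11, 0.924 and 2.67 CPM in DMSO mice 480 to 483 and at 169, 25.9 and 9.54 CPM in ABT-263 mice 476 to 478. The groups did not overlap, and ABT-263 mouse 478, the lowest of its group, was still well above DMSO mouse 483. The mean was 45.5-fold higher, or 11.8-fold without mouse 476. Its log2 fold change of 5.49 (standard error 1.13, edgeR adjusted p = 0.0174) passed the threshold without each of the 7 mice in turn, and was 3.56 without mouse 476 (edgeR adjusted p = 0.0377). On every gene with a count it missed the threshold (edgeR adjusted p = 0.0663), and the filter of 10 counts in every mouse left it out.

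Cxcl1, also called KC, is induced in keratinocytes and fibroblasts soon after injury. Its levels were 0.491, 0.337, 1.44 and 2.01 CPM in DMSO mice 480 to 483 and 116, 2.57 and 5.37 CPM in ABT-263 mice 476 to 478. The groups did not overlap, ABT-263 mouse 477 lay just above the highest DMSO mouse, and mouse 476 stood 21.6-fold above the next ABT-263 mouse. The mean was 38.6-fold higher with all mice and 3.71-fold higher without mouse 476. The log2 fold change of 5.27 (standard error 1.43, edgeR adjusted p = 0.0375) was the least secure of the 4 calls: it passed without mouse 477 or mouse 478, and missed the threshold without each of the others. Without mouse 476 it was 1.90 (edgeR adjusted p = 0.104). Without DMSO mice 480, 481, 482 and 483 the edgeR adjusted p was 0.0751, 0.0718, 0.0770 and 0.0716. It was 0.127 on every gene with a count and 0.0850 with limma.

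Cxcl5, also called LIX, attracts neutrophils and is made largely by epithelial and stromal cells. Its level was 0.286 CPM in DMSO mouse 480, 0 in mice 481 and 482, and 4.31 CPM in mouse 483, and it was 156, 7.54 and 12.6 CPM in ABT-263 mice 476 to 478. Every ABT-263 mouse lay above every DMSO mouse, and DMSO mouse 483 stood apart from the other DMSO mice. In counts, the DMSO mice had 7, 0, 0 and 105 read pairs, and a count of 0 allows up to 3. The log2 fold change of 5.64, the largest among the members, had a standard error of 1.75 and a 95% interval of 1.49 to 9.79, and it missed the threshold (edgeR adjusted p = 0.0570). Without DMSO mouse 483 it was 9.11 and passed (edgeR adjusted p = 0.0368), and without mouse 476 it was 3.11 (edgeR adjusted p = 0.315).

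**Figure D2:**
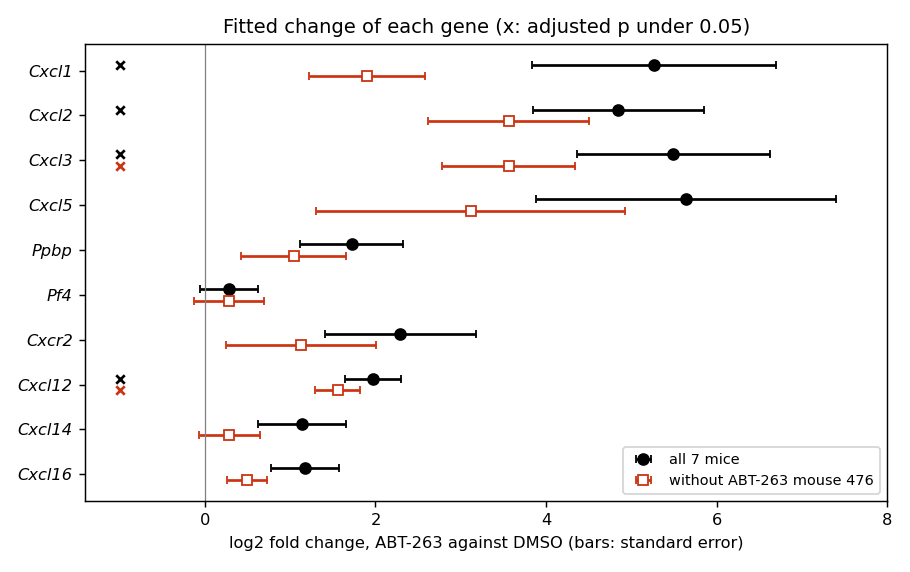
Fitted log2 fold change of each gene, ABT-263 against DMSO, from edgeR, with bars of 1 standard error, for all 7 mice (filled circles) and without mouse 476 (open squares), and crosses for an adjusted p under 0.05. Cxcl3 and Cxcl12 have a cross in both fits, Cxcl1 and Cxcl2 with all 7 mice.

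The 4 ligands were also added up. Their summed level was 3.31, 13.2, 13.3 and 18.9 CPM in DMSO mice 480 to 483 and 972, 209 and 52.6 CPM in ABT-263 mice 476 to 478. Each ABT-263 mouse had more ligand RNA than any DMSO mouse, and the ABT-263 mice were spread more widely than the DMSO mice. To compare the ligands with each other, CPM were divided by exon length in kilobases (RPKM). On that scale Cxcl2 was the largest of the 4 in every mouse, with 53.4% to 86.9% of the summed RPKM in DMSO mice and 57.0%, 86.7% and 49.5% in ABT-263 mice 476, 477 and 478. The ranges of this share overlapped between the groups. Cxcl5 made up 18.6%, 4.19% and 27.6% in ABT-263 mice 476 to 478 and 26.0% in DMSO mouse 483. Cxcl1 made up 1.42% in ABT-263 mouse 477, the lowest share of this ligand in any mouse.

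**Figure D3:**
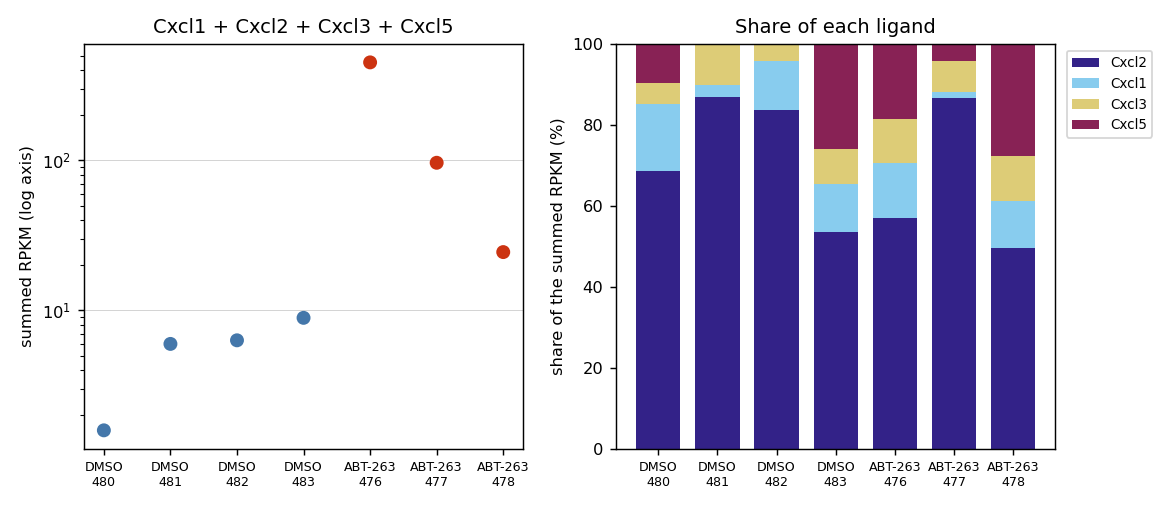
Left, summed RPKM of Cxcl1, Cxcl2, Cxcl3 and Cxcl5 in each mouse on a log axis. Right, the share of each ligand in that sum in percent. The ABT-263 mice lie at 24.5 to 451 RPKM and the DMSO mice at 1.59 to 8.92 RPKM, and Cxcl2 is the largest share in all 7 mice.

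Cxcr2 encodes the receptor through which neutrophils respond to these ligands. It stood at 12.7, 0.801, 7.80 and 4.27 CPM in DMSO mice 480 to 483 and at 66.4, 13.6 and 14.2 CPM in ABT-263 mice 476 to 478. The groups did not overlap, but ABT-263 mice 477 and 478 lay just above DMSO mouse 480, and the DMSO mice were spread over a wide range. The mean was 4.90-fold higher, or 2.17-fold without mouse 476. Its log2 fold change of 2.29 (standard error 0.89, 95% interval 0.23 to 4.35) missed the threshold with all mice (edgeR adjusted p = 0.0965) and without each mouse in turn. Its counterpart Cxcr1, which is no member and was too low to be tested, had no counts in 3 DMSO mice and 0.0411 CPM in mouse 483, against 5.79, 0.353 and 0.236 CPM in ABT-263 mice 476 to 478.

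Ppbp encodes the precursor of the CXCR2 ligand that activated platelets release. Its levels were 0.859, 0.169, 0.359 and 0.534 CPM in DMSO mice 480 to 483 and 2.86, 0.958 and 1.03 CPM in ABT-263 mice 476 to 478. The groups did not overlap, though ABT-263 mouse 477 exceeded DMSO mouse 480 only slightly, and all 7 values rest on between 4 and 80 read pairs. A log2 fold change of 1.72 (standard error 0.61, 95% interval 0.33 to 3.11) missed the threshold (edgeR adjusted p = 0.0712), but passed without DMSO mouse 480, where it was 2.16 (edgeR adjusted p = 0.0484). Without mouse 476 it was 1.04 (edgeR adjusted p = 0.287).

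Pf4, or platelet factor 4, is the other granule chemokine and binds heparin. It stood at 46.9, 22.3, 70.8 and 49.1 CPM in DMSO mice 480 to 483 and at 57.8, 67.3 and 47.4 CPM in ABT-263 mice 476 to 478. The groups overlapped entirely, and the highest level was that of DMSO mouse 482. The log2 fold change was 0.28 (standard error 0.34, edgeR adjusted p = 0.567), with a 95% interval of -0.50 to 1.06. This interval includes no change.

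Platelet markers were set beside the platelet chemokines. Of 12 listed genes, 7 were tested, and 2 rose and 0 fell with edgeR, against 12.4% and 11.7% of all genes tested. Without adjustment (edgeR p under 0.05), 4 were higher and 0 lower, against 20.6% and 19.5% of all genes. The 2 that rose were P2ry12, an ADP receptor that skin macrophages and microglia can also express, and Clec1b, the podoplanin receptor of platelets. No DMSO mouse reached the filter's limit for Clec1b, so this gene was tested only because of its level after ABT-263, and 3 of the 7 tested genes needed the ABT-263 mice to be kept. The defining gene Itga2b, the platelet integrin alpha chain, had a log2 fold change of -0.17 (edgeR adjusted p = 0.501), and Gp9, part of the receptor for von Willebrand factor, one of 1.65 (edgeR adjusted p = 0.100). The list summed to between 22.7 and 36.5 CPM in DMSO mice and between 33.7 and 70.7 CPM in ABT-263 mice, and Gp1ba had 0 counts in all DMSO mice. Only P2ry12 passed without mouse 476, and 1 gene of the list passed without mouse 478 or mouse 481. Without mouse 476, 478 and 481, 6.01%, 5.22% and 7.95% of all genes were called higher. The part of platelets in the level of Ppbp was not tested.

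Cxcl12, or SDF-1, is made by fibroblasts, pericytes and endothelial cells, and holds leukocytes and stem cells through the receptor CXCR4. It stood at 85.0, 53.6, 90.3 and 105 CPM in DMSO mice 480 to 483 and at 494, 204 and 285 CPM in ABT-263 mice 476 to 478. The lowest ABT-263 mouse lay above the highest DMSO mouse, so the groups did not overlap. Mouse 476 was 1.73-fold above the next ABT-263 mouse, the smallest such gap among the members that rose. The mean was 3.93-fold higher, or 2.93-fold without mouse 476. The log2 fold change of 1.97 (standard error 0.33, 95% interval 1.21 to 2.73) had the smallest adjusted p of all members (edgeR adjusted p = 0.00899). It passed the threshold without each of the 7 mice in turn, at 1.56 to 2.26, and under all 7 other settings tried, at 1.86 to 2.00.

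Cxcl14, or BRAK, is made constitutively by the epidermis and by dermal fibroblasts. It stood at 58.5, 123, 60.2 and 107 CPM in DMSO mice 480 to 483 and at 364, 81.2 and 130 CPM in ABT-263 mice 476 to 478. Mouse 476 was far above all others, while ABT-263 mouse 477 lay within the DMSO range. Its log2 fold change of 1.14 (standard error 0.52, 95% interval -0.06 to 2.34) missed the threshold (edgeR adjusted p = 0.142), and without mouse 476 it was 0.28 (edgeR adjusted p = 0.635).

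Cxcl16 is a membrane-anchored chemokine of macrophages and dendritic cells that binds CXCR6 and also takes up oxidized lipoprotein. It stood at 64.9, 35.4, 54.9 and 45.9 CPM in DMSO mice 480 to 483 and at 199, 63.7 and 77.6 CPM in ABT-263 mice 476 to 478. The groups overlapped only in that ABT-263 mouse 477 lay just below DMSO mouse 480. A log2 fold change of 1.17 (standard error 0.40, 95% interval 0.24 to 2.11) missed the threshold (edgeR adjusted p = 0.0679), but passed without mouse 477, where it was 1.50 (edgeR adjusted p = 0.0407). Without mouse 476 it was 0.50 (edgeR adjusted p = 0.190).

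Per length of exon, the order of the members differed between the groups. In DMSO skin the median level fell from Pf4 (66.6 RPKM) and Cxcl14 (45.6 RPKM) through Cxcl16 (16.7 RPKM), Cxcl12 (10.7 RPKM), Cxcl2 (4.98 RPKM) and Cxcr2 (1.98 RPKM) to Cxcl1 (0.514 RPKM), Cxcl3 (0.433 RPKM), Ppbp (0.412 RPKM) and Cxcl5 (0.0769 RPKM). The ranges over mice of neighbours in this order were separate only between Cxcl14 and Cxcl16 and between Cxcl12 and Cxcl2, so the resting chemokines and Pf4 stood above the inducible ligands. In ABT-263 skin Cxcl2 came first with a median of 83.7 RPKM, followed by Pf4 (80.1 RPKM), Cxcl14 (71.0 RPKM), Cxcl12 (34.8 RPKM) and Cxcl16 (25.7 RPKM). All neighbours in this second order had overlapping ranges, and with the length of the longest transcript in place of all exons Pf4 came before Cxcl2.

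Genes whose pattern over the 7 mice was most like that of a member were found from the root mean square difference of log2(CPM + 0.5), each centred on its DMSO mean. For Cxcl3 the nearest gene was Il1b (difference 0.332), which encodes IL-1β, followed by Acod1 (0.478), which encodes the enzyme that makes itaconate, and Cxcl2 (0.570). For Cxcl2 the nearest were Cxcl3 (0.570), Il1b (0.582) and Acod1 (0.599). For Cxcl1 they were Chil3 (0.376), a chitinase-like protein of myeloid cells, and Csf3 (0.457), which encodes G-CSF, the growth factor of neutrophils. The ligands differed in the order of the ABT-263 mice: Cxcl2 and Cxcl3 had mouse 477 clearly above mouse 478, while Cxcl1 and Cxcl5 had mouse 478 above mouse 477. The nearest gene to Cxcl5 was also Csf3 (0.968).

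Cxcr2 was most like Fcgr1 (0.393), a receptor for IgG on macrophages and monocytes, and Lcp2 (0.456), an adaptor of immune cell receptors. Cxcl12 was most like Cd163 (0.153), a scavenger receptor of tissue macrophages, Susd3 (0.159) and Cd300lb (0.171). Cdh5 (0.177), the cadherin of endothelial cells, came after these among the 5 nearest genes to Cxcl12. The nearest genes to Ppbp, Cxcl14 and Cxcl16 were Arhgap9 (0.0892), Prr5l (0.218) and Sdk1 (0.0988). Pf4 varied too little for this measure.

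Of 13 other CXC chemokines, receptors and scavenging receptors, 9 were tested. Of these 6 rose and 0 fell with edgeR, against 12.4% and 11.7% of all genes tested. At an unadjusted p under 0.05, 6 were higher and 0 lower, against 20.6% and 19.5% of all genes. The median log2 fold change of the 9 was 1.09. Those that rose were Cxcl9 and Cxcl10, interferon-induced ligands of CXCR3, Cxcr3 itself, Cxcl13, an attractant of B cells, and the scavenging receptors Ackr1 and Ackr3. Without mouse 476 only Cxcl10 and Ackr3 passed, and 3 of the list passed without mouse 481 or mouse 482 and 2 without mouse 483. Of all genes, 6.01% were called higher without mouse 476, 7.95% without 481, 4.80% without 482 and 5.58% without 483.

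For the receptors of the homeostatic members, results differed between genes. Ackr3, which binds and removes Cxcl12, stood at 18.4 to 25.3 CPM in DMSO mice and at 31.7 to 58.1 CPM in ABT-263 mice, with no overlap. Its log2 fold change was 1.09 (edgeR adjusted p = 0.0126), and it passed without each of the 7 mice. Cxcr4, the signalling receptor for Cxcl12, stood at 7.96 to 15.5 CPM in DMSO mice and at 40.2, 15.0 and 8.10 CPM in ABT-263 mice, with a log2 fold change of 0.89 (edgeR adjusted p = 0.226). Cxcr6, the receptor for Cxcl16, stood at 1.08 to 4.75 CPM in DMSO mice and at 1.79 to 3.47 CPM in ABT-263 mice, a log2 fold change of 0.10 (edgeR adjusted p = 0.912).

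Of 20 inducers and regulators of the CXCR2 ligands, 19 were tested. With edgeR 9 rose and 0 fell, against 12.4% and 11.7% of all genes tested, and the median log2 fold change of the 19 was 1.82. At an unadjusted p under 0.05, 14 were higher and 0 lower, against 20.6% and 19.5% of all genes tested. Of the 19, 4 were kept by the filter only with the ABT-263 mice, and 2 of the 9 that rose are among these. The 4 with the smallest p were Nfkbiz and Nfkb1, a coactivator and a subunit of NF-kappaB, Il1b, and Tnf. Nfkbiz, which acts downstream of IL-1 and IL-17, stood at 13.4 to 20.6 CPM in DMSO mice and at 84.8, 37.6 and 63.8 CPM in ABT-263 mice, a log2 fold change of 1.82 (edgeR adjusted p = 0.00746) that passed without each mouse. Nfkbia, the NF-kappaB inhibitor that is itself a target of the pathway, stood at 163 to 179 CPM in DMSO mice and was above that range in mouse 476 alone, at 418 CPM (log2 fold change 0.49, edgeR adjusted p = 0.332). Zc3h12a, an RNase that degrades inflammatory transcripts, rose by 1.56 on the log2 scale (edgeR adjusted p = 0.0415). This call passed in only 2 of the 7 fits that left out a mouse. Il17a was too low to be tested, with 0 counts in 3 DMSO mice and 1.43, 0.151 and 2.28 CPM in ABT-263 mice 476 to 478. Without mouse 476, 5 of the list passed, without mouse 482 3 did, and without mouse 483 5 did. The shares of all genes called higher in these fits were 6.01%, 4.80% and 5.58%.

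Markers of the cells that carry CXCR2 were counted next. Of 22 neutrophil markers, 16 were tested. With edgeR 8 rose and 0 fell, against 12.4% and 11.7% of all genes tested, and the median log2 fold change of the 16 was 3.68. At an unadjusted p under 0.05, 13 were higher and 0 lower, against the same 20.6% and 19.5% of all genes. The filter kept 4 of the 16 only with the ABT-263 mice, and all 4 are among the 8 that rose. On every gene with a count, where all 22 were tested, edgeR called 0 neutrophil markers higher, against 6.11% of all genes. In that fit 11 were higher at an unadjusted p under 0.05, against 14.0% of all genes. The 4 with the smallest p were Csf3r, the G-CSF receptor, Mmp9, a gelatinase, Fpr1, the formyl peptide receptor, and S100a8, a subunit of calprotectin that keratinocytes also make. No DMSO mouse reached the filter's limit for Fpr1, so it was tested only because of its level after ABT-263. Of the 12 markers that reached the limit in at least 3 DMSO mice, 4 rose. Summed over the list, DMSO mice 480 to 483 had 1995, 188, 1536 and 689 CPM and ABT-263 mice 476 to 478 had 10161, 5408 and 5877 CPM. The groups did not overlap. DMSO mouse 481 was lowest both in this sum and in Cxcr2, while DMSO mouse 480 was the highest DMSO mouse in both. The 8 suprabasal keratinocyte markers, of which edgeR called 0, had the same lowest and highest DMSO mouse. They summed to 46132, 13414, 23076 and 13928 CPM in DMSO mice 480 to 483. In ABT-263 mice 476 to 478 they summed to 8007, 30036 and 18879 CPM.

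The count of neutrophil markers called depended on the mice included: 5 passed without mouse 476, 5 without mouse 480, and 1 without mouse 482 or mouse 483. The share of all genes called higher also moved. It was 6.01% without mouse 476, 11.6% without 480, 4.80% without 482 and 5.58% without 483. S100a8 and S100a9 made up most of the summed level, and S100a9 itself missed the threshold (log2 fold change 2.56, edgeR adjusted p = 0.0772). The lineage marker Ly6g was at 0, 0.253, 0 and 0.123 CPM in DMSO mice 480 to 483 and at 14.0, 0.101 and 0.172 CPM in ABT-263 mice 476 to 478, so it stood out in mouse 476 only. The granule genes Mpo and Elane, transcribed in bone marrow precursors, were below 1 CPM in every mouse. Other granule genes of the list were higher. Prtn3 stood at 1.28 to 5.38 CPM in DMSO mice and at 2.39 to 6.76 CPM in ABT-263 mice. Ngp, Camp and Ltf were at 14.7, 4.58 and 8.26 CPM in ABT-263 mouse 476. In the other mice they reached at most 0.123, 1.11 and 0.534 CPM. The part of neutrophil number in the level of Cxcr2 was not tested.

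**Figure D4:**
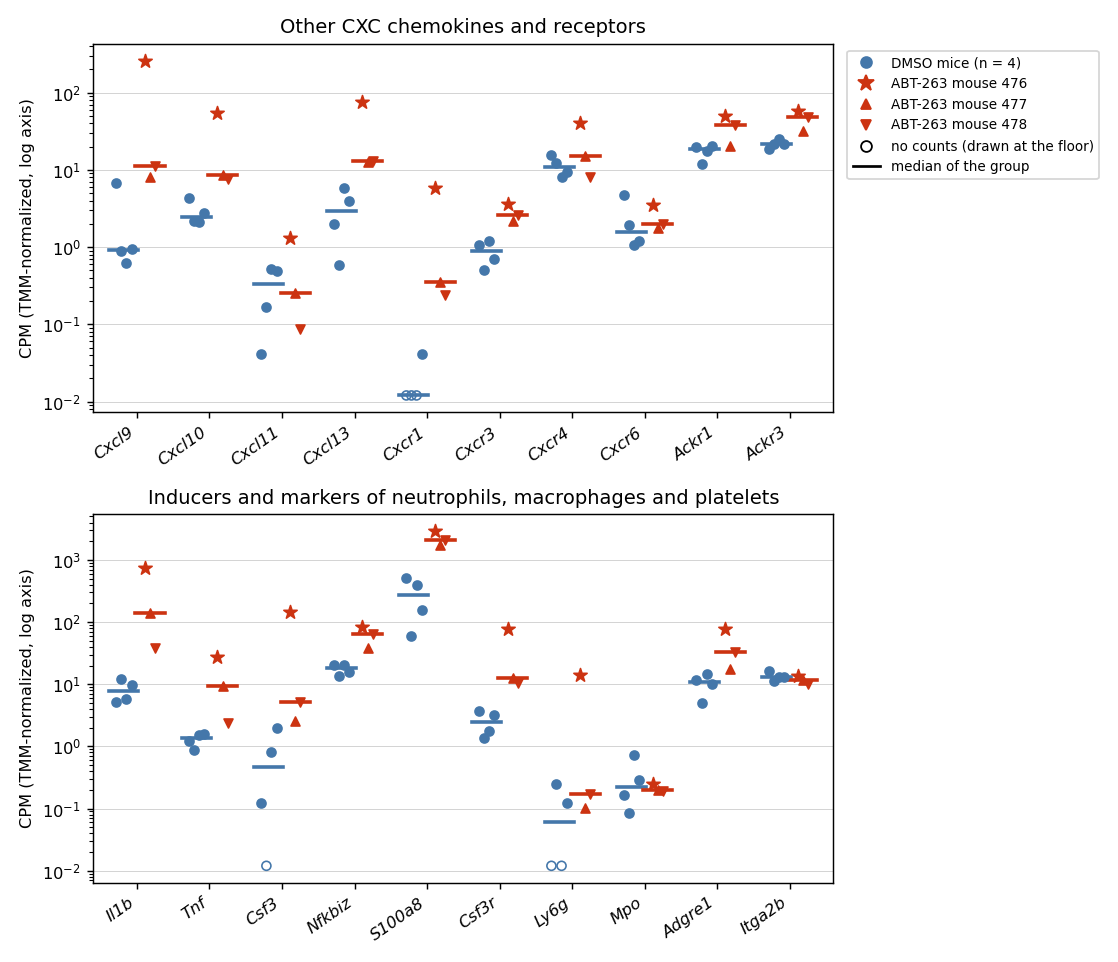
Top, levels of other CXC chemokines and receptors in each mouse. Bottom, levels of inducers and of markers of neutrophils, macrophages and platelets. Both axes are CPM on a log scale, with 1 point per mouse, a line at the group median, and open circles for mice without counts. Ly6g is at 14.0 CPM in mouse 476 and at most 0.253 CPM in the other mice, and Itga2b overlaps between the groups.

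Marker lists of other cells that could carry the members were counted in the same way. The counts below stand against 12.4% of all genes tested called higher by edgeR and 11.7% called lower. Without mouse 476, 477 and 478, edgeR called 6.01%, 12.3% and 5.22% of all genes higher. Without mouse 480, 481, 482 and 483 it called 11.6%, 7.95%, 4.80% and 5.58%, and on every gene with a count 6.11%. The shares called lower without mouse 478, 481, 482 and 483 were 4.17%, 8.11%, 5.50% and 6.07%. Of 12 macrophage markers, all tested, 7 rose and 0 fell with edgeR (11 higher and 0 lower at an unadjusted p under 0.05, against 20.6% and 19.5% of all genes). No DMSO mouse reached the filter's limit for Marco, so it was tested only because of its level after ABT-263. Marco is among the 11 but not among the 7. The macrophage list summed to 454 to 1336 CPM in DMSO mice and 1539 to 4598 CPM in ABT-263 mice. Adgre1, which encodes F4/80, rose by 2.07 on the log2 scale (edgeR adjusted p = 0.0291). This call passed in only 1 of the 7 fits that left out a mouse. Without mouse 476 the log2 fold change of Adgre1 was 1.32 (edgeR adjusted p = 0.0778). The number of macrophage markers that passed was 3 without mouse 476 or mouse 478, 4 without mouse 481 or mouse 482, 1 without mouse 483, and 2 in the fit on every gene with a count. Of 9 fibroblast markers 3 rose, and the list summed to 4059 to 5729 CPM in DMSO mice and 6439 to 9124 CPM in ABT-263 mice, with 2 to 4 called when a mouse was left out. Of 8 endothelial markers 6 rose, with sums of 193 to 381 CPM and 499 to 642 CPM, and 3 passed without mouse 476, 478, 482 or 483. Of 6 pericyte markers 1 rose, Kcnj8, a potassium channel subunit, with sums of 204 to 267 CPM and 280 to 328 CPM, and none rose without mouse 478. Of 7 basal keratinocyte markers 1 rose and 1 fell, the sums overlapped (18201 to 31227 CPM and 13873 to 35946 CPM), and neither call was made without mouse 478, 481, 482 or 483. The part of each of these cell types in the levels of Cxcl12, Cxcl14, Cxcl16 and the CXCR2 ligands was not tested.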

How the data were processed

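Bulk RNA sequencing was analyzed for dorsal skin of 7 mice, 3 treated with ABT-263 and 4 with DMSO. Groups were taken from the treatment label of each sample, and count columns were matched by sample title. The authors aligned reads to mm10 with STAR 2.7.9a and made gene counts with featureCounts of Subread 1.6.2, per the submitters' processing notes. Only proper pairs with 1 alignment on the strand of an Ensembl gene were counted, mitochondrial genes aside. The deposited counts are raw. The authors also deposited variance-stabilized values (a log2 scale), used here as an alternative. The protocol in the labels and the study's methods name different RNA extraction kits.

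Counts were tested in R 4.3.3 with edgeR 4.0.16 (TMM, filterByExpr, robust quasi-likelihood test, two-sided, Benjamini-Hochberg adjustment over 17959 genes, threshold 0.05). The filter keeps genes at about 0.373 CPM or more in 3 mice. The script was tested on simulated data. Symbols, positions and exon lengths came from GENCODE M21 (GRCm38), which held 55190 of 55450 identifiers and is not the annotation used by the authors. RPKM were CPM divided by the length of all exons of a gene. The 95% intervals use the t quantile at the degrees of freedom of the quasi-likelihood test. Promoters came from RefSeq. The floor of low counts covers counting error only, and a count of 0 allows up to 3.

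The members, the other gene lists and the tests were chosen with earlier results of these data known. All members are named, and of other lists up to 4 called genes per direction with the smallest p and a set of key genes. Prtn3, Ngp, Camp and Ltf are named beside Mpo and Elane, and Marco because of the filter. P2ry12 and Clec1b were the only called platelet markers. For members spanning more than 2 on the log2 scale, the 5 most similar genes were found and the nearest are named. Alternatives were the DESeq2 1.42.0 Wald test without its filters, DESeq2 size factors, other filters on low counts, counts thinned to the smallest library, limma 3.58.1, removal of trends on length and GC content (mgcv 1.9-3), and leaving out each mouse. The labels name no batch and do not pair the mice, which are separate animals.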

Additional observations from a re-analysis of the deposited data

Results flagged for a closer look

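Among 15 measures in the 4 DMSO mice (the 10 members and 5 summed levels), 2 had a mouse that stood apart from the other 3 beyond Dixon's 95% critical value of 0.829, where chance gives 0.75. For Cxcl2, DMSO mouse 480 was low, at 2.25 CPM against 9.86 to 10.9 CPM in the other 3, a gap of 0.876 of the group's range. For Cxcl5, DMSO mouse 483 was high, at 4.31 CPM against 0 to 0.286 CPM, a gap of 0.934 of the range. The 3 ABT-263 mice were not examined in this way, so mouse 476 is not covered by this check.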

How the results depend on the processing

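No member's log2 fold change changed sign under the alternatives run, and no member was called lower. Testing every gene with a count took Cxcl1 (log2 fold change 5.29, edgeR adjusted p = 0.127), Cxcl2 (4.87, adjusted p = 0.0664) and Cxcl3 (5.52, adjusted p = 0.0663) out of the calls. That fit called 6.11% of all genes higher. It left 1 of 10 members, 3 of 12 other CXC genes, 5 of 20 inducers and 0 of 22 neutrophil markers called higher. Of these 22 markers, 11 were higher at an unadjusted p under 0.05, against 14.0% of all genes. With limma, Cxcl1 was at 3.01 (adjusted p = 0.0850), and Cxcl5 passed at 4.69 (adjusted p = 0.0287). It called 4 neutrophil markers higher, against 11.9% of all genes. With thinned counts Cxcl5 passed at 5.66 (edgeR adjusted p = 0.0482). With the DESeq2 Wald test Ppbp passed at 1.76 (adjusted p = 0.0444) and Cxcl16 at 1.20 (adjusted p = 0.0276). That test called 13 of 22 neutrophil markers higher, against 9.07% of the 30645 genes with a count. Requiring 10 counts in every mouse left no value for Cxcl1, Cxcl3, Cxcl5 and Ppbp, and 2 members, 5 neutrophil markers and 1 platelet marker called. In that fit 13.4% of the genes tested were called higher. Over all alternatives that keep every mouse, the adjusted p lay between 0.00146 and 0.127 for Cxcl1, 5.71e-05 and 0.0664 for Cxcl2, 4.61e-05 and 0.0663 for Cxcl3, 0.0287 and 0.170 for Cxcl5, 0.0444 and 0.0966 for Ppbp, and 0.0276 and 0.156 for Cxcl16. Apart from the missing values, the cause of these changes was not tested.

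When single mice were left out, fitted log2 fold changes ranged from 1.90 to 5.88 for Cxcl1, from 3.56 to 5.39 for Cxcl2, from 3.56 to 6.02 for Cxcl3, from 3.11 to 9.11 for Cxcl5, from 1.04 to 2.16 for Ppbp and from 0.50 to 1.50 for Cxcl16. The number called higher ranged from 2 to 5 for members, 2 to 5 for other CXC genes, 3 to 11 for inducers, 1 to 7 for neutrophil markers and 1 to 2 for platelet markers. Over the same fits, 4.80% to 12.3% of all genes were called higher. Of all genes, 4342 were called with all mice and 1735 without mouse 478, 1824 without mouse 482, 2063 without mouse 483, 2228 without mouse 476 and 2837 without mouse 481. The number of genes called was 2234 higher and 2108 lower, and 1920 and 2499 with trends on length and GC content removed.

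With 3 and 4 mice, fold changes of members with few counts had wide intervals: Ppbp rests on 4 to 80 read pairs and Cxcl1 on 8 to 49 in DMSO mice. The labels do not say how skin was sampled within the treated area. No paired analysis was possible because the groups share no mouse number. With the longest transcript as the length, levels were higher by the same factor in both groups: mean Pf4 went from 65.6 to 80.4 RPKM in DMSO and from 79.8 to 97.8 RPKM in ABT-263 mice, and Cxcl12 from 10.2 to 14.8 and from 40.0 to 58.2 RPKM.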
